A study of Mus musculus with 12 samples.

Results

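Glycolysis and the carriers that bring glucose into a cell and lactate out of it were followed through 28 of 32 listed genes in mouse embryonic stem (ES) cells. The genes were chosen by function: glucose transporters, the enzymes from hexokinase to pyruvate kinase, the bifunctional enzymes that set the pace of phosphofructokinase, lactate dehydrogenases, lactate carriers, and the transcription factor gene Hif1a. A gene entered if a probe set was annotated to its symbol alone, and its brightest such probe set over the 12 arrays stood for it. Of 22180 genes measured in this way, 28 were members. Gpi1, Pfkfb1, Eno1 and Aldoa had no such probe set and were not analysed here; the Aldoa probe set is annotated to Aldoart1 as well.

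The cells were line K3, and each of 12 samples was hybridised to a whole-transcript MoGene 2.0 ST array. The WT/mock group had an intact Esrrb gene, which encodes the orphan nuclear receptor ERRb. The KO/mock group carried a knockout of Esrrb, and the KO/ERRb-wt group was knockout cells transduced with a lentivirus expressing ERRb. Each group held 4 arrays from 2 clones with 2 arrays each: WT/mock clones were 5-2 and 5-5, KO/mock clones 8-3 and 8-4, and KO/ERRb-wt clones 12-1 and 12-3. All groups alike had been grown in N2B27 medium with LIF and the inhibitors CH99021 and PD0325901, and then spent 3 days in N2B27 with the inhibitors and doxycycline. The labels name neither the viral promoter nor the site of the knockout lesion, nor what doxycycline was added for. A difference between groups therefore also holds whatever else separates 2 clones from 2 others, and p-values measure the spread between these arrays.

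Values are log2 expression. Array medians lay between 5.00 and 5.07. Esrrb itself did not follow the labels: it read 7.38, 7.38, 7.39 and 7.38 on the WT/mock arrays, 7.48, 8.00, 7.74 and 7.41 on the KO/mock arrays, and 6.99, 6.76, 6.50 and 6.68 on the KO/ERRb-wt arrays. It was lowest on the arrays labelled as carrying the virus, and whether its probe set lies outside the lesion or the viral insert is not known, so groups are named by their labels and every direction is one between labelled arrays. The mean log2 value per array was 9.83 to 10.07 over 11 ES cell markers, of which Dppa5a was lowest with group means of 4.90 to 4.99. It was 4.77 to 4.96 over 9 fibroblast markers, 5.45 to 5.61 over 8 primitive endoderm markers, 5.75 to 6.10 over 8 trophoblast markers and 5.53 to 5.84 over 5 neural markers. Probe sets differ in their response, so these means describe each list and are not set against each other. In such bulk samples, fewer cells of a kind and less RNA per cell cannot be told apart.

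Glycolysis splits glucose into pyruvate in the cytosol, and much of its control lies at glucose entry, at hexokinase, at phosphofructokinase and at pyruvate kinase. Most of these steps have several isozymes, encoded by separate genes, that differ in tissue distribution and in regulation. Naive ES cells are known to use both glycolysis and mitochondrial respiration, whereas primed pluripotent cells rely more on glycolysis, and ERRb is known as a regulator of mitochondrial and energy metabolism genes.

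A gene is called here when limma gave it a Benjamini-Hochberg adjusted p under 0.05, counted over 41345 probe sets. From WT/mock to KO/mock, the phosphofructokinase gene Pfkl and the lactate dehydrogenase gene Ldhb rose and the hexokinase gene Hk1 fell, so that 3 of 28 members (10.7%) were called, beside 5.58% of all genes (2.11% higher, 3.47% lower) and 9.10% of brighter genes, those averaging 5 or more on the log2 scale. Between KO/ERRb-wt and KO/mock only Pfkp fell, 1 of 28 members (3.57%), beside 4.40% of all genes (1.24% higher, 3.17% lower) and 7.02% of brighter ones. Between KO/ERRb-wt and WT/mock 13 of 28 members (46.4%) were called, 6 higher and 7 lower, beside 20.8% of all genes (8.82% higher, 12.0% lower) and 32.5% of brighter ones. With 1 mean per clone, 2 clones against 2, the calls numbered 0, 0 and 3 by limma (7, 7 and 12 at an unadjusted p under 0.05), and the 3 were Slc2a3, Pfkl and Eno2. Both of the members with a mean under 5, Hk3 and Pgam2, were called in no comparison.

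The members did not move as a block. Their median log2 difference was 0.03 between KO/mock and WT/mock, -0.02 between KO/ERRb-wt and KO/mock and -0.0037 between KO/ERRb-wt and WT/mock. Over all genes the medians were 0.0042, 0.02 and 0.03. The median size of the difference, whatever its sign, was 0.13, 0.12 and 0.18 for the members, and 0.11, 0.11 and 0.17 for the brighter genes. For 12, 9 and 15 of the 28 members the 4 arrays of a group all lay above or all below the 4 of the other. The percentages were 42.9, 32.1 and 53.6, beside 15.9, 17.0 and 28.5 of all genes. This share was not computed for the brighter genes, to which all but 2 of the members belong. The first and second comparison share the KO/mock arrays, and the last shares arrays with both, so their results are not independent of each other.

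**Figure D1:**
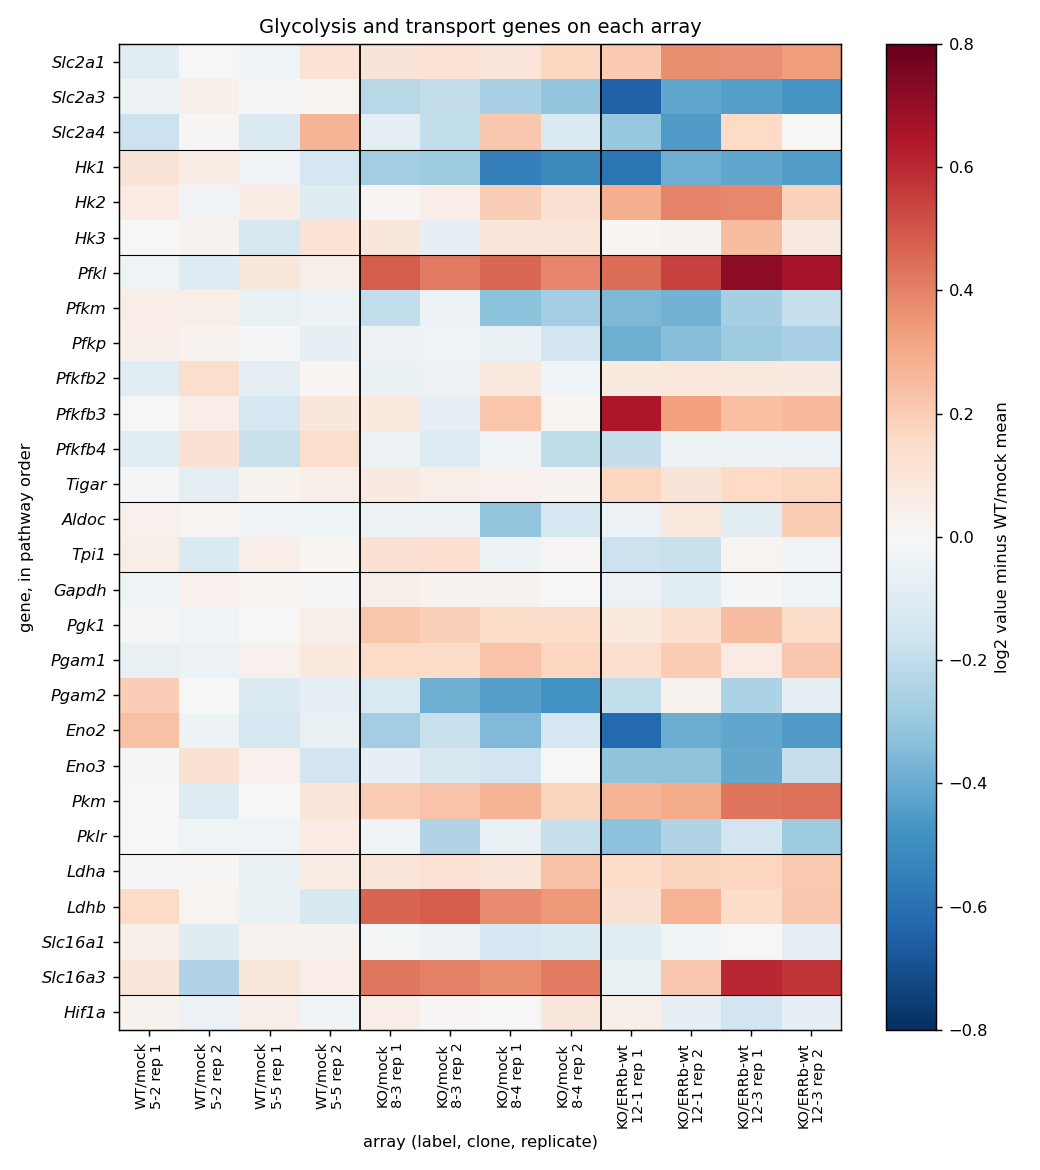
Heat map of the log2 value of each measured member on each array, minus the mean of the WT/mock arrays, with genes in pathway order and black lines between functional groups. Pfkl, Ldhb and Slc16a3 turn red and Hk1 blue at the KO/mock arrays, and Slc2a3, Pfkp, Eno2 and Eno3 are bluest on the KO/ERRb-wt arrays.

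Promoter windows of 300 bases, from 250 before to 50 after an annotated start, were taken from RefSeq (GRCm38.p6) for 26 of the 28 members. Those of the 4 genes called in a comparison with KO/mock are shown because these genes differ at a single step. Capitals mark AGGTCA, the half-site bound by many nuclear receptors, and ACGTG, a form of the core of hypoxia response elements, on either strand. The form GCGTG was not searched for and is not marked. Hk1 has 2 windows, of which chr10:62340372-62340671 is shown because it holds such letters and chr10:62379859-62380158 holds neither motif. The Pfkl window lies at chr10:78009758-78010057, Pfkp at chr13:6648722-6649021 and Ldhb at chr6:142507908-142508207, all on the minus strand and written 5′ to 3′ along the gene.
Hk1: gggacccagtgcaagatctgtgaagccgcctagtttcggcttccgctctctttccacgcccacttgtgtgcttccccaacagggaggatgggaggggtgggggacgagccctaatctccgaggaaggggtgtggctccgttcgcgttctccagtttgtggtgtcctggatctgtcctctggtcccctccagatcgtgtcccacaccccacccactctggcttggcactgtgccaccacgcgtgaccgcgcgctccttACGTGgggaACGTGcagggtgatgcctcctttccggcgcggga
Pfkl: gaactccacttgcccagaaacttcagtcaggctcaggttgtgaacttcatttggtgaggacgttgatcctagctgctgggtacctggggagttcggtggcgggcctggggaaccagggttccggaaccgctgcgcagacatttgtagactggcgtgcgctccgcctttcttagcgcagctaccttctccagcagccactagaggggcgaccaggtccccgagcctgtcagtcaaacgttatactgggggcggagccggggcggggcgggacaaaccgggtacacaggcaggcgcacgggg
Pfkp: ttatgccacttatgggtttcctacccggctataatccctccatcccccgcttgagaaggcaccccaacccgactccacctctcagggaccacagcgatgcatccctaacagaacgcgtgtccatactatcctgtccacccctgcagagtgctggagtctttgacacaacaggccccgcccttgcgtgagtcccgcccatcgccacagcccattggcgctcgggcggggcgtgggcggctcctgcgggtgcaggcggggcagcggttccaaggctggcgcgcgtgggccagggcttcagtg
Ldhb: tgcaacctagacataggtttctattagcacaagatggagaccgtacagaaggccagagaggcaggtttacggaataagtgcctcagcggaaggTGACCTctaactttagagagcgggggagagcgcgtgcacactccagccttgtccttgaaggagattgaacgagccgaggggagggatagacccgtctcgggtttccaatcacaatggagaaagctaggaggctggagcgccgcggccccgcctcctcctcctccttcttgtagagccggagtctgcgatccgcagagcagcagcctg

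The full ERR element TCAAGGTCA, on either strand, was in 0 of 37 windows of the members and in 0.423% of all 32851 windows. The shorter AAGGTCA, which that element contains, was in the Tpi1 window alone (2.7% of the members' windows against 4.72% of all), and AGGTCA, contained in both, was in 7 of 37 (18.9% against 16.3%). ACGTG was in 19 of 37 windows (51.4% against 19.6% of all), from 16 of 26 genes. It was present 2 times in the Hk1 window shown and absent from those of Pfkl, Pfkp and Ldhb, of which the last held a single AGGTCA. The form GCGTG, which was not counted, can be read in the windows of Pfkl, Pfkp and Ldhb and in the Hk1 window shown. The members' windows had a median GC content of 57.3%, against 52.7% for all. These are matches of letters in short windows, and binding was not measured.

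Glucose enters ES cells through facilitative transporters. Slc2a1 encodes GLUT1, the widely expressed carrier, and Slc2a3 encodes the high-affinity carrier GLUT3. Slc2a3 read 12.13, 12.21, 12.16 and 12.19 on the WT/mock arrays, 11.95, 11.98, 11.91 and 11.86 on KO/mock, and 11.52, 11.76, 11.73 and 11.70 on KO/ERRb-wt. The 3 groups did not overlap and lay in that order. Between WT/mock and KO/ERRb-wt, with 4 arrays each, Slc2a3 fell by 0.49 ± 0.06 in log2 (here and below ± of a difference is its SE), or 1.41-fold (limma, adjusted p = 0.00032). The steps on either side of KO/mock were of like size, -0.24 ± 0.06 and -0.25 ± 0.06, and both lay just outside the threshold (limma, adjusted p = 0.0535 and 0.0548).

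Slc2a1 had the opposite direction. It read 10.78, 10.87, 10.83 and 10.98 on WT/mock, 10.97, 10.98, 10.96 and 11.04 on KO/mock, and 11.07, 11.24, 11.23 and 11.20 on KO/ERRb-wt. The WT/mock and KO/mock arrays overlapped, and the KO/ERRb-wt arrays lay above both. It rose by 0.32 ± 0.06 between WT/mock and KO/ERRb-wt, or 1.25-fold (limma, adjusted p = 0.00421), in steps of 0.12 ± 0.06 (adjusted p = 0.361) and 0.20 ± 0.06 (adjusted p = 0.111). A dimmer Slc2a1 probe set, with group means of 5.48, 5.39 and 5.53, did not show this difference (0.05 ± 0.10; limma, adjusted p = 0.799). The insulin-responsive carrier gene Slc2a4 read near the array median, 5.22 ± 0.20, 5.18 ± 0.18 and 5.07 ± 0.28 (SD, n = 4), and was not called in any comparison.

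Hexokinases trap glucose in the cell by phosphorylating it. Hk1 read 7.85, 7.80, 7.71 and 7.61 on WT/mock, 7.46, 7.46, 7.20 and 7.23 on KO/mock, and 7.16, 7.35, 7.32 and 7.29 on KO/ERRb-wt. All WT/mock arrays lay above the other 8, which overlapped with each other. Hk1 fell by 0.41 ± 0.08 from WT/mock to KO/mock, or 1.32-fold (limma, adjusted p = 0.0199), and KO/ERRb-wt differed from KO/mock by -0.06 ± 0.08 (95% interval -0.24 to 0.13; adjusted p = 0.773). Its difference between KO/ERRb-wt and WT/mock was -0.46 ± 0.08 (adjusted p = 0.003). The 2 KO/mock clones stood apart for Hk1, with means of 7.46 for clone 8-3 and 7.21 for clone 8-4. The call at KO/mock was lost when any single array of clone 5-2 or of clone 8-4 was left out, with limma adjusted p up to 0.0704, and when only these 2 groups were fitted (adjusted p = 0.0542).

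Hk2, the isozyme typical of growing and insulin-responsive cells, read 10.12, 10.03, 10.12 and 9.96 on WT/mock, 10.08, 10.11, 10.25 and 10.18 on KO/mock, and 10.35, 10.46, 10.44 and 10.24 on KO/ERRb-wt. KO/ERRb-wt lay above WT/mock on every array and overlapped KO/mock. It rose by 0.31 ± 0.07 between WT/mock and KO/ERRb-wt, or 1.24-fold (limma, adjusted p = 0.00946), with steps of 0.10 ± 0.07 and 0.22 ± 0.07 that were not called. The Hk2 call was lost without clone 12-1 (adjusted p = 0.0600). Hk3 read 4.91 ± 0.10, 4.96 ± 0.08 and 5.00 ± 0.11 (SD, n = 4).

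Phosphofructokinase commits sugar to glycolysis, and its liver-type (Pfkl), muscle-type (Pfkm) and platelet-type (Pfkp) subunits form mixed tetramers. Pfkl read 8.36, 8.28, 8.48 and 8.43 on WT/mock, 8.87, 8.80, 8.85 and 8.78 on KO/mock, and 8.83, 8.94, 9.10 and 9.05 on KO/ERRb-wt. Every knockout-labelled array lay above every WT/mock array. Pfkl rose by 0.44 ± 0.07 from WT/mock to KO/mock, or 1.35-fold (limma, adjusted p = 0.00481). It stood 0.59 ± 0.07 higher on KO/ERRb-wt than on WT/mock, or 1.51-fold (adjusted p = 0.000216), the largest difference of any measured member in that comparison. The step between KO/mock and KO/ERRb-wt was 0.15 ± 0.07 (adjusted p = 0.27). The Pfkl calls held with any single array left out, but the call at KO/mock was lost without clone 5-2 or clone 8-4.

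The other subunit genes went the other way. Pfkp read 10.94, 10.93, 10.89 and 10.83 on WT/mock, 10.85, 10.87, 10.84 and 10.75 on KO/mock, and 10.51, 10.55, 10.61 and 10.64 on KO/ERRb-wt. The WT/mock and KO/mock arrays overlapped, with a difference of -0.07 ± 0.06, and the KO/ERRb-wt arrays lay below both. Pfkp fell by 0.25 ± 0.06 from KO/mock to KO/ERRb-wt (limma, adjusted p = 0.0343) and was 0.32 ± 0.06 lower on KO/ERRb-wt than on WT/mock (adjusted p = 0.00218). Its call between KO/ERRb-wt and KO/mock ended without WT/mock clone 5-2 replicate 1, either KO/mock clone 8-3 array, KO/mock clone 8-4 replicate 1 or any KO/ERRb-wt array (adjusted p up to 0.0886), and with quantile normalization (adjusted p = 0.0579).

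Pfkm read 7.55, 7.53, 7.43 and 7.45 on WT/mock, 7.29, 7.44, 7.16 and 7.22 on KO/mock, and 7.13, 7.11, 7.22 and 7.30 on KO/ERRb-wt. It fell by 0.30 ± 0.07 between WT/mock and KO/ERRb-wt (limma, adjusted p = 0.0159), and KO/mock lay between them without a call. The former call was lost without clone 5-2 or clone 12-1 (adjusted p = 0.141 and 0.126). KO/mock overlapped both other groups.

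The bifunctional enzymes encoded by the Pfkfb genes make and remove the allosteric activator of phosphofructokinase, and Tigar encodes a phosphatase that removes it. Pfkfb3, the form with the strongest kinase bias, read 5.43, 5.49, 5.29 and 5.53 on WT/mock, 5.51, 5.37, 5.66 and 5.45 on KO/mock, and 6.08, 5.76, 5.68 and 5.69 on KO/ERRb-wt. WT/mock and KO/mock overlapped, and all KO/ERRb-wt arrays lay above both. Pfkfb3 rose by 0.37 ± 0.10 between WT/mock and KO/ERRb-wt, or 1.29-fold (limma, adjusted p = 0.0273). Leaving out WT/mock clone 5-2 replicate 1 or 2 or WT/mock clone 5-5 replicate 1 ended that call (adjusted p up to 0.0725). It was also lost without clone 5-2, 5-5 or 12-1 (limma, adjusted p = 0.104, 0.0920 and 0.118). Tigar also lay higher on all KO/ERRb-wt arrays, at 9.55 ± 0.03 against 9.39 ± 0.05 and 9.44 ± 0.02 (SD, n = 4), and the difference from WT/mock of 0.15 ± 0.05 was not called (adjusted p = 0.059). Pfkfb2 and Pfkfb4 differed by at most 0.09 in size in any comparison.

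**Figure D2:**
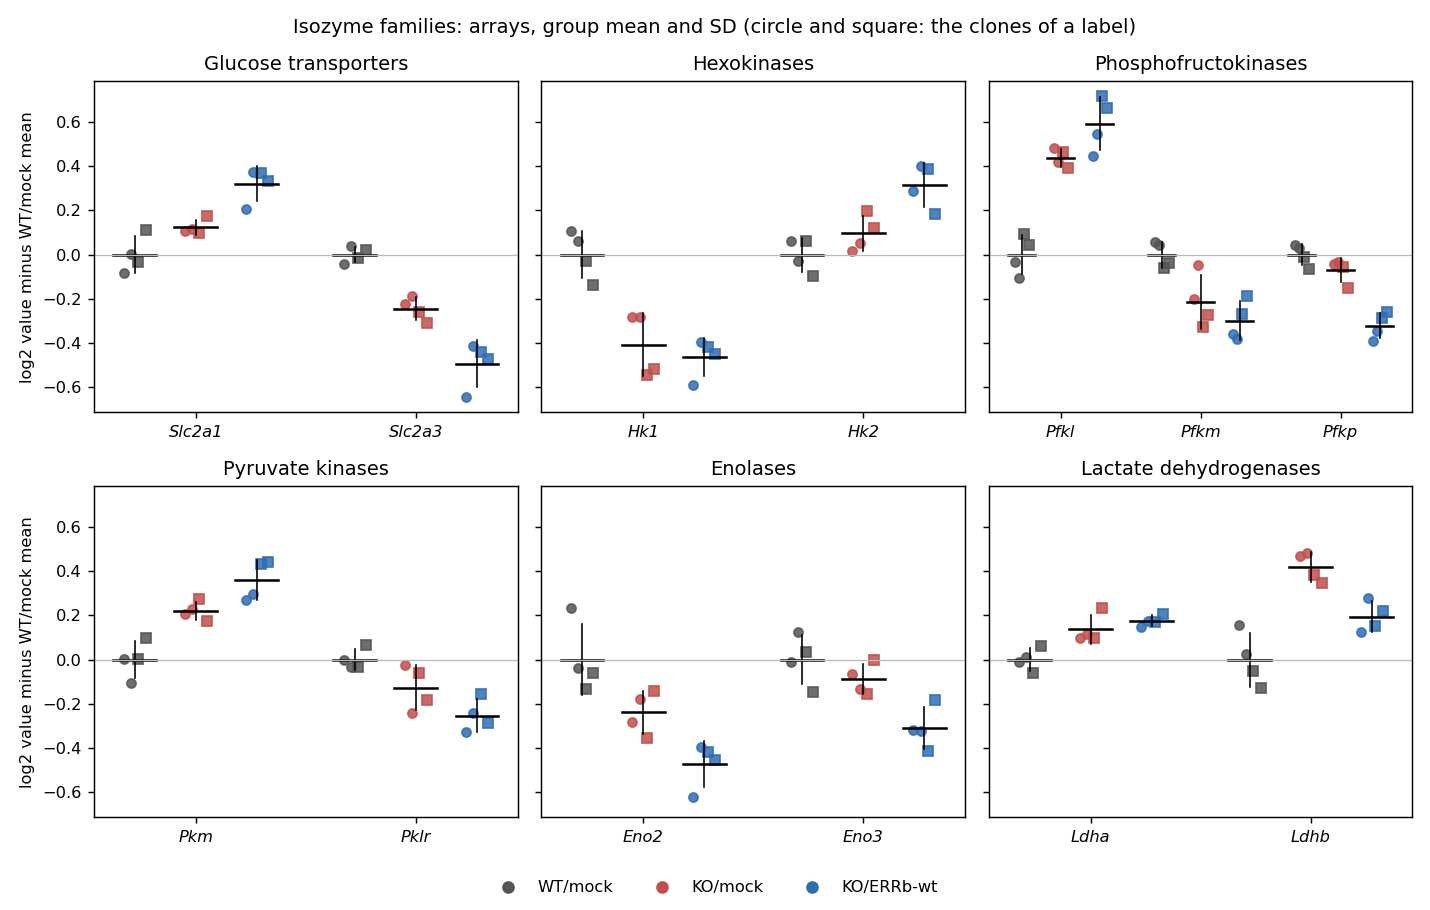
Log2 value of each array minus the mean of the WT/mock arrays for 6 isozyme families, with group means as horizontal lines and SDs as vertical lines. Circles mark clones 5-2, 8-3 and 12-1, and squares clones 5-5, 8-4 and 12-3. Within the glucose transporters, hexokinases, phosphofructokinases and pyruvate kinases, genes called between KO/ERRb-wt and WT/mock lie on both sides of 0.

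Below phosphofructokinase, aldolase and triose phosphate isomerase yield the triose phosphates. Aldoc, the brain-type aldolase gene, read 7.43 ± 0.03, 7.30 ± 0.13 and 7.47 ± 0.13 (SD, n = 4) in the 3 groups, and Tpi1 read 11.02 ± 0.08, 11.08 ± 0.09 and 10.93 ± 0.10. Neither was called by limma in a comparison, and neither had an unadjusted p under 0.05.

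The lower part of the pathway recovers ATP. Gapdh, the dehydrogenase gene often used as a loading control, read 13.17 ± 0.03, 13.20 ± 0.02 and 13.13 ± 0.03 (SD, n = 4) and was not called; its difference between KO/ERRb-wt and WT/mock was -0.05, with a 95% interval of -0.15 to 0.06. Pgk1, the phosphoglycerate kinase gene, stood higher on every knockout-labelled array than on every WT/mock array, at 11.06 ± 0.04 and 11.04 ± 0.07 against 10.88 ± 0.03. Its differences from WT/mock of 0.18 ± 0.05 and 0.15 ± 0.05 were not called (limma, adjusted p = 0.0999 and 0.0771). The phosphoglycerate mutase gene Pgam1 read 10.09 ± 0.06, 10.27 ± 0.04 and 10.25 ± 0.07, and its muscle counterpart Pgam2 4.77 ± 0.14, 4.41 ± 0.16 and 4.64 ± 0.13, neither called. Between KO/mock and WT/mock none of the 8 measured genes from Gapdh to pyruvate kinase was called, although 5 had an unadjusted limma p under 0.05. Between KO/ERRb-wt and KO/mock none was called either, and 3 had such a p.

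Pyruvate kinase makes pyruvate in the last step, from Pkm in most tissues and from Pklr in liver and red cells. Pkm read 12.03, 11.92, 12.03 and 12.13 on WT/mock, 12.23, 12.26, 12.30 and 12.20 on KO/mock, and 12.30, 12.32, 12.46 and 12.47 on KO/ERRb-wt. No WT/mock array reached the other groups. Pkm rose by 0.36 ± 0.06 between WT/mock and KO/ERRb-wt, or 1.28-fold (limma, adjusted p = 0.00263), and the 0.22 ± 0.06 between WT/mock and KO/mock was not called (adjusted p = 0.0871). The probe set does not separate the splice forms of Pkm.

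Pklr was low, reading 6.21, 6.18, 6.18 and 6.28 on WT/mock, 6.19, 5.97, 6.15 and 6.03 on KO/mock, and 5.89, 5.97, 6.06 and 5.93 on KO/ERRb-wt. It fell by 0.25 ± 0.07 between WT/mock and KO/ERRb-wt (limma, adjusted p = 0.0222). WT/mock clone 5-2 replicate 1, KO/ERRb-wt clone 12-1 replicate 1 and KO/ERRb-wt clone 12-3 replicate 2 each ended the call when left out (adjusted p up to 0.0592). So did clone 5-2, 5-5, 12-1 or 12-3 (limma, adjusted p = 0.0872, 0.0844, 0.110 and 0.0510).

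Enolase makes phosphoenolpyruvate, and with Eno1 not analysed here the neuronal Eno2 and the muscle Eno3 remained. Eno2 read 6.82, 6.55, 6.45 and 6.53 on WT/mock, 6.31, 6.41, 6.23 and 6.44 on KO/mock, and 5.96, 6.19, 6.17 and 6.13 on KO/ERRb-wt. The groups did not overlap, in the same order as for Slc2a3. Eno2 fell by 0.47 ± 0.09 between WT/mock and KO/ERRb-wt, or 1.39-fold (limma, adjusted p = 0.0038), in uncalled steps of -0.24 ± 0.09 and -0.23 ± 0.09. Eno3 read 8.57, 8.70, 8.61 and 8.43 on WT/mock, 8.51, 8.45, 8.43 and 8.58 on KO/mock, and 8.26, 8.26, 8.17 and 8.40 on KO/ERRb-wt. It fell by 0.31 ± 0.07 between WT/mock and KO/ERRb-wt (adjusted p = 0.0139), and the KO/mock arrays overlapped those of WT/mock. The Eno3 call was lost without clone 5-2 or clone 12-1 (limma, adjusted p = 0.111 and 0.0704).

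Lactate dehydrogenase interconverts pyruvate and lactate; subunit A is linked with lactate production and subunit B with its use. Ldhb was the only member called up at KO/mock and not at KO/ERRb-wt against WT/mock. It read 10.29, 10.15, 10.08 and 10.00 on WT/mock, 10.60, 10.61, 10.51 and 10.48 on KO/mock, and 10.25, 10.41, 10.28 and 10.35 on KO/ERRb-wt. The KO/mock arrays lay above all others, and the KO/ERRb-wt arrays overlapped WT/mock. Ldhb rose by 0.42 ± 0.07 from WT/mock to KO/mock, or 1.34-fold (limma, adjusted p = 0.0064), a call lost without clone 8-3. KO/ERRb-wt differed from KO/mock by -0.23 ± 0.07 (95% interval -0.38 to -0.07; adjusted p = 0.112) and from WT/mock by 0.19 ± 0.07 (adjusted p = 0.0947).

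Ldha read 6.92, 6.94, 6.87 and 6.99 on WT/mock, 7.03, 7.05, 7.03 and 7.17 on KO/mock, and 7.08, 7.11, 7.10 and 7.14 on KO/ERRb-wt. It rose by 0.17 ± 0.05 between WT/mock and KO/ERRb-wt, close to the threshold (limma, adjusted p = 0.0478). This call was lost when any of 10 of the 12 arrays was left out (all but replicate 2 of clone 5-5 and replicate 2 of clone 8-4), with adjusted p up to 0.116.

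Lactate leaves cells through monocarboxylate transporters. Slc16a1, which encodes the widely expressed MCT1, read 10.56 ± 0.06, 10.48 ± 0.06 and 10.51 ± 0.04 (SD, n = 4), and the 95% interval of its difference between KO/ERRb-wt and WT/mock ran from -0.17 to 0.07. Slc16a3, which encodes the exporter MCT4, read 6.14, 5.80, 6.14 and 6.10 on WT/mock, 6.46, 6.44, 6.42 and 6.45 on KO/mock, and 5.99, 6.26, 6.65 and 6.61 on KO/ERRb-wt. KO/mock lay above WT/mock on every array, while the KO/ERRb-wt clones fell on both sides of it. The difference of 0.40 ± 0.13 between KO/mock and WT/mock was not called (limma, adjusted p = 0.142), and that of 0.33 ± 0.13 between KO/ERRb-wt and WT/mock was not either (adjusted p = 0.125). With the KO/ERRb-wt arrays out of the fit, the former was called (adjusted p = 0.0427). Without KO/ERRb-wt clone 12-1 the latter was 0.59 (adjusted p = 0.00475), and without clone 12-3 it was 0.08 (adjusted p = 0.729).

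Hif1a encodes the oxygen-regulated factor that drives many glycolytic genes when oxygen is low, and it is controlled largely through the stability of its protein. Its mRNA read 9.41 ± 0.04, 9.45 ± 0.04 and 9.35 ± 0.08 (SD, n = 4). It was not called, and the 95% intervals of its differences lay within -0.22 and 0.16 in the 3 comparisons.

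**Figure D3:**
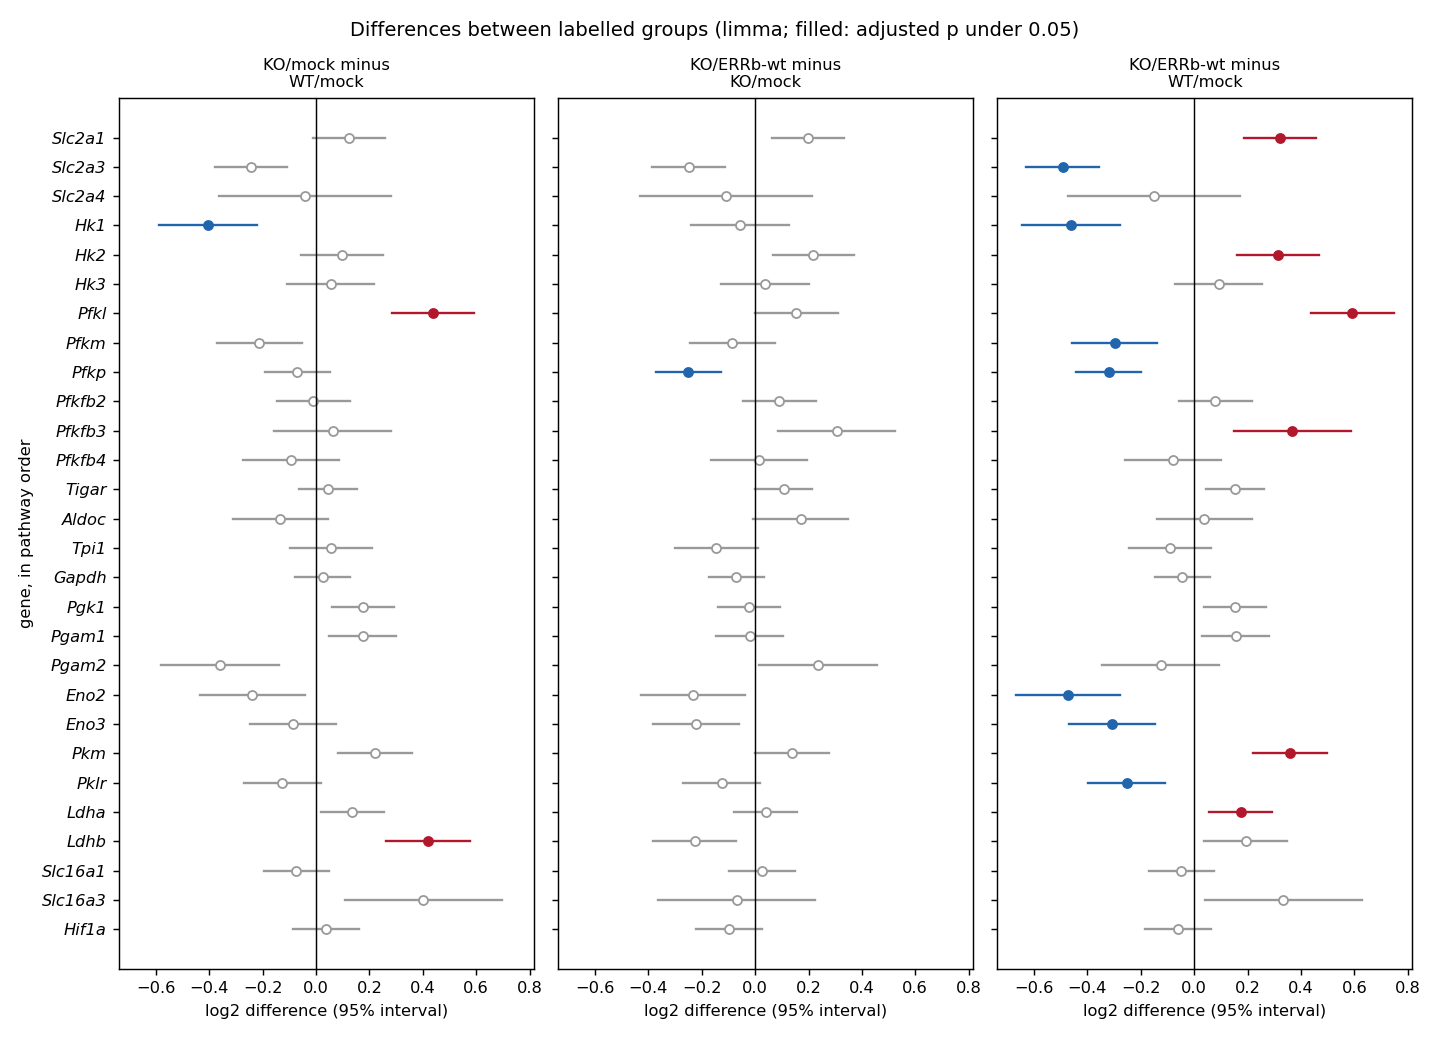
Log2 difference of each measured member in the 3 comparisons, with its 95% interval from limma; filled points, red for higher and blue for lower, had an adjusted p under 0.05. Filled points number 3, 1 and 13 from left to right, and those on the right lie on both sides of 0.

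Genes called in opposite directions within a family, between KO/ERRb-wt and WT/mock, were seen for the glucose transporters (Slc2a1 higher, Slc2a3 lower), the hexokinases (Hk2 higher, Hk1 lower), the phosphofructokinase subunits (Pfkl higher, Pfkm and Pfkp lower) and the pyruvate kinases (Pkm higher, Pklr lower). This grouping was made after the values were seen. The calls of Hk2, Pfkm and Pklr were lost when clone 12-1 was left out. That of Pfkm was also lost without clone 5-2, and that of Pklr without clone 5-2, 5-5 or 12-3. Levels of different probe sets cannot be set against each other on these arrays, so which isozyme is the more abundant is not given. Of 11 ES cell markers, 6 (54.5%) were called in the same comparison, beside 20.8% of all genes and 32.5% of brighter ones. Klf2 was higher and Klf4, Nanog, Fgf4, Utf1 and Tfcp2l1 were lower. The mean over the 11 ranged over 9.94 to 10.07 on WT/mock arrays, 9.93 to 9.97 on KO/mock and 9.83 to 9.90 on KO/ERRb-wt. In the comparisons with KO/mock, 2 and 4 of the 11 (18.2% and 36.4%) were called, all lower. The shares of brighter genes called were 9.10% and 7.02%. Some markers of other cell types were called as well. Called by limma were 2, 3 and 1 of 8 primitive endoderm markers and 1, 0 and 1 of 8 trophoblast markers. For neural markers it was 1, 1 and 2 of 5, and for fibroblast markers 0, 0 and 1 of 9. For the counts of 0, 0 trophoblast and 0 and 1 fibroblast markers had an unadjusted p under 0.05. Between KO/ERRb-wt and WT/mock, the called shares of primitive endoderm, trophoblast and fibroblast markers lay below the 20.8% of all genes. The neural share lay above it. Between KO/mock and WT/mock, all but the fibroblast share lay above the 5.58% of all genes and the 9.10% of brighter ones. The trophoblast and neural shares there rest on 1 called gene each. Between KO/ERRb-wt and KO/mock, only the primitive endoderm and neural shares lay above the 4.40% of all genes and the 7.02% of brighter ones. Because several of these shares rest on 1 called gene, they are not read as results about these cell types. At KO/mock Lama1 rose by 0.58 while Gata4, Krt8 and Sox1 fell by 0.51, 0.44 and 0.62. Gata4 lies on chromosome 14. The genes of that chromosome with a mean of at least 5 had a median difference of -0.37 between KO/mock and WT/mock, beside 0.02 elsewhere. From KO/mock to KO/ERRb-wt Lama1 and Sox7 fell by 0.66 and 0.63, and Tubb3 and Dab2 rose by 0.67 and 0.34. The part of these markers in the results was not tested.

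Around the pathway, 92 of 103 further listed genes were measured. Of these, 12 were called between KO/mock and WT/mock (6 higher, 6 lower), 11 between KO/ERRb-wt and KO/mock (2 higher, 9 lower) and 40 between KO/ERRb-wt and WT/mock (17 higher, 23 lower), that is 13.0%, 12.0% and 43.5%, beside 5.58%, 4.40% and 20.8% of all genes and 9.10%, 7.02% and 32.5% of brighter ones. Of 13 measured genes of pyruvate entry into mitochondria, 2, 2 and 4 were called, all lower; the 4 are 30.8%, near the share of brighter genes called in that comparison. Pdk4 and Pdk2, kinases that switch off pyruvate dehydrogenase, were 1.09 ± 0.14 and 0.78 ± 0.12 lower on KO/ERRb-wt than on WT/mock (limma, adjusted p = 0.00027 and 0.000941). Dld, the shared dihydrolipoamide dehydrogenase, was 0.56 ± 0.07 lower, and already fell by 0.35 ± 0.07 at KO/mock, a call lost when replicate 1 of clone 5-2 was left out (adjusted p = 0.0501). Pdhb fell by 0.26 ± 0.05 at KO/mock. It lies on chromosome 14, whose 447 genes with a mean of at least 5 had a median difference of -0.37 in that comparison, beside 0.02 for the genes of other chromosomes. No measured member lies on chromosome 14.

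On the list of glycogen and glucose phosphate conversion 2, 2 and 7 of 10 measured genes were called, with 1, 0 and 1 higher. The 7 are 70.0%, beside 20.8% of all genes and 32.5% of brighter ones in that comparison. Pgm2, on chromosome 5 and known mainly as a phosphopentomutase, fell at each step, by 0.50 ± 0.07 (limma, adjusted p = 0.00199) and by 0.53 ± 0.07 (adjusted p = 0.00303), and was 2.04-fold lower on KO/ERRb-wt than on WT/mock. The glycogen synthase gene Gys1 fell by 0.55 ± 0.08 between KO/mock and KO/ERRb-wt (adjusted p = 0.00482). In gluconeogenesis 2, 1 and 3 of 7 genes were called, the 3 being 42.9%. Pck2, the mitochondrial phosphoenolpyruvate carboxykinase gene and also on chromosome 14, fell by 0.80 ± 0.12 at KO/mock (adjusted p = 0.00271), while Pcx, for pyruvate carboxylase, rose by 0.37 ± 0.06 (adjusted p = 0.00406).

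The pentose phosphate branch had 0, 1 and 3 of 8 genes called by limma (0%, 12.5% and 37.5%), with 4 at an unadjusted p under 0.05 in the first comparison. The shares called were 5.58%, 4.40% and 20.8% over all genes and 9.10%, 7.02% and 32.5% over brighter ones. Pgd and Rpia were 0.40 ± 0.07 and 0.48 ± 0.08 higher and Rpe 0.52 ± 0.08 lower on KO/ERRb-wt than on WT/mock (adjusted p = 0.00198, 0.00209 and 0.0009). Other carriers had 1, 0 and 3 of 15 called (4, 4 and 3 at an unadjusted p under 0.05), and other isozymes 0, 0 and 3 of 8 (3, 4 and 4). Ldhd, a D-lactate dehydrogenase gene, and Eno4, of the enolase family, were 0.49 ± 0.07 and 0.57 ± 0.13 higher and Adpgk, an ADP-dependent glucokinase gene, 0.38 ± 0.08 lower on KO/ERRb-wt than on WT/mock (limma, adjusted p = 0.000875, 0.0119 and 0.00525).

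Of 18 hypoxia targets and HIF regulators 2, 3 and 11 were called, with 2, 1 and 6 higher and 0, 2 and 5 lower. The 11 are 61.1%, beside 20.8% of all genes and 32.5% of brighter ones in that comparison. Vegfa, the angiogenic factor gene, was 1.48 ± 0.20 lower on KO/ERRb-wt than on WT/mock (limma, adjusted p = 0.00049), whereas Ndrg1 was 0.82 ± 0.09 higher (adjusted p = 8.61e-05). Among other regulators 3, 2 and 6 of 13 were called, with 1, 1 and 3 higher, the 6 being 46.2%. Max, the partner of Myc proteins, was 0.48 ± 0.07 higher on KO/ERRb-wt than on WT/mock (limma, adjusted p = 0.000644). Its rise of 0.34 ± 0.07 at KO/mock (adjusted p = 0.018) was lost when any single array of clone 5-2 or of clone 8-4 was left out. Mycn, of the Myc family, rose by 0.51 ± 0.12 between KO/mock and KO/ERRb-wt (adjusted p = 0.0414). That call was lost when replicate 2 of clone 5-2, replicate 1 of clone 5-5, either array of clone 8-3 or 12-1, or replicate 2 of clone 12-3 was left out. Txnip, a glucose-induced brake on glucose uptake, fell by 0.89 ± 0.12 from WT/mock to KO/mock (adjusted p = 0.00182), and Mlxipl, which encodes the glucose-sensing factor ChREBP, fell by 0.52 ± 0.09 (adjusted p = 0.00572). Prkaa2, for a catalytic subunit of the energy sensor AMPK, fell by 0.80 ± 0.10 between KO/mock and KO/ERRb-wt (adjusted p = 0.00252). It was 1.08 ± 0.10 lower on KO/ERRb-wt than on WT/mock (adjusted p = 4.23e-05).

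**Figure D4:**
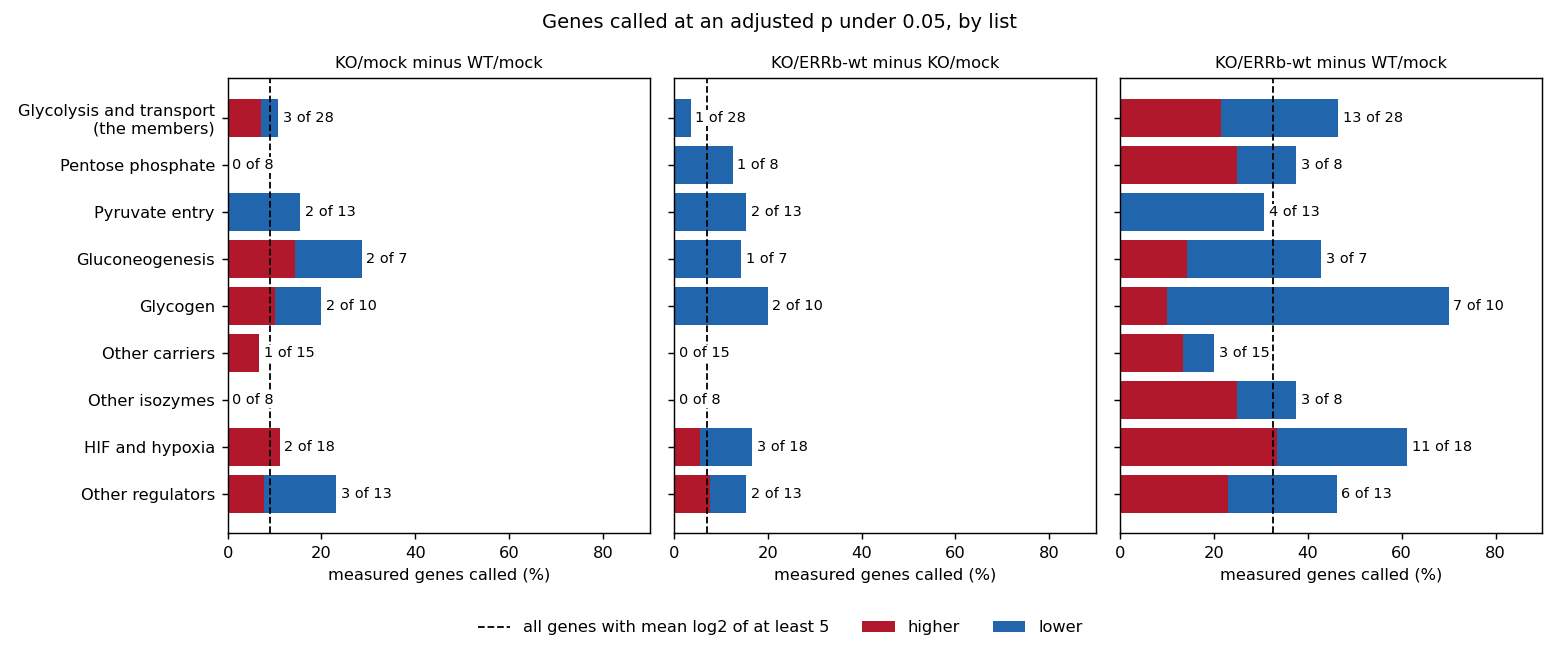
Share of the measured genes of each list called higher (red) or lower (blue) in the 3 comparisons, with the count beside each bar and a dashed line at the share of all genes averaging 5 or more on the log2 scale (9.10%, 7.02% and 32.5%). The bar of the members reaches 10.7%, 3.57% and 46.4%.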

How the data were processed

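The deposited values are log2 expression; the submitters' processing notes name RMA and Affymetrix Expression Console, without a version. RMA subtracts background, gives all arrays 1 distribution and summarises probes, so a shift shared by most genes would not show, and no detection call came with the values. Of 41345 probe sets, 23521 had 1 symbol in the platform annotation, 1814 several and 16010 none. All 12 arrays entered 1 linear model of the 3 groups (limma 3.58.1, statmod 1.5.0, R 4.3.3) with clone as a random block (correlation 0.0286), two-sided, adjusted over all probe sets. The script was tested on simulated data. Every called member is given array by array, as is Slc16a3, chosen after its values were seen; further lists are given as counts, with up to 3 called genes per list and comparison by smallest adjusted p. Members and lists were chosen with earlier results of these data known. Promoter letters came from RefSeq. Alternatives covered the clone block, scaling, filter, weights, prior, probe set choice, and arrays or clones left out.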

Additional observations from a re-analysis of the deposited data

Results flagged for a closer look

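In 87 groups of 4 arrays (28 members and Esrrb), 5 held an array whose gap to its nearest neighbour took up more of the group's range than Dixon's 95% critical value allows, and chance flags about 1 in 20. The share was 0.937 for Hk3 on KO/mock clone 8-3 replicate 2, which read 4.84 against 5.00 on the nearest of the others. It was 0.938 for Pfkfb4 on KO/ERRb-wt clone 12-1 replicate 1, low at 5.80 against 5.94. It was 0.881 for Ldha on KO/mock clone 8-4 replicate 2, high at 7.17 against 7.05. WT/mock clone 5-2 replicate 2 was low for both lactate carriers, with 0.927 for Slc16a1 (10.46 against 10.59) and 0.878 for Slc16a3 (5.80 against 6.10).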

How the results depend on the processing

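Under the 28 alternatives run in each comparison, no called member changed sign. Main counts of called members were 3 (KO/mock against WT/mock), 1 (KO/ERRb-wt against KO/mock) and 13 (KO/ERRb-wt against WT/mock). With clone averages they were 0, 0 and 3 (limma; 7, 7 and 12 at an unadjusted p under 0.05), the 3 being Slc2a3, Pfkl and Eno2; with 2 clones against 2, fewer units enter. Leaving out dim probe sets (mean under 5) gave 6 and 2 in the first and second comparison, and a trended robust prior 7 and 4. In the first, fitting only the 2 groups compared gave 3, with Slc16a3 called (adjusted p = 0.0427) and Hk1 not (adjusted p = 0.0542), and leaving out clones 5-2, 8-4 and 12-1 gave 1, 1 and 5. In the second, no clone block, median centring and array weights gave 2 each, the pair being Slc2a3 and Pfkp; only the 2 groups compared, quantile normalization, and leaving out clones 8-3, 8-4, 12-1 or 12-3 gave 0 (unadjusted 9, 11, 6, 8, 8 and 10). In the third, leaving out clone 12-1 gave 8. There, leaving out dim probe sets called Tigar, Pgk1 and Pgam1 as well, and a trended robust prior called these and Ldhb. Leaving out single arrays gave 2 to 4, 0 to 1 and 11 to 13.

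The replicate block left the counts at 3, 1 and 13. Replicate numbers 1 and 2 are given within clones, and deviations of same-numbered arrays correlated at -0.013 to 0.141 over 12 clone pairs. The number of arrays and clones limits the precision.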
